A study of Mus musculus with 18 samples.

Results

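Heat shock proteins and their DnaJ partners were examined in whole dorsal root ganglia (DRG) of 3 mouse lines, each lacking 1 voltage-gated sodium channel of sensory neurons. Members were the genes whose symbol in the array annotation begins with *Hspa*, *Hspb*, *Hsp90*, *Dnaja*, *Dnajb* or *Dnajc*, together with *Hspd1*, *Hspe1*, *Hsph1*, *Bag1* to *Bag5* and *Hsf2*. *Hspa4l* was left out by this rule. It gave 77 members of 18193 genes with a probe set named for 1 gene, each read from its brightest probe set: 12 *Hspa*, 10 *Hspb*, 2 *Hsp90*, 4 *Dnaja*, 13 *Dnajb* and 27 *Dnajc* genes, 3 genes of the chaperonin and Hsp110 group, 5 *Bag* genes and *Hsf2*. *Hsf1* and *Hsp90ab1* were not analysed here, and *Dnajc19* was not used because its 3 probe sets also carry the name of a pseudogene. The symbols *Hspbp1*, *Hspbap1* and *Hspb11* entered with the *Hspb* prefix, although they do not belong to the small heat shock protein family in the strict sense.

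The Nav1.7 KO mice carried floxed *Scn9a* and Cre driven from the Advillin gene, which removes the channel from sensory neurons, whereas the KO mice of the Nav1.8 and Nav1.9 lines were global null mutants. Each KO group was set beside its own littermates, labelled wild type. There were 3 arrays per group and 18 arrays in all, from mice that the methods give as 8 to 12 weeks old and of both sexes. Whether an array held RNA of 1 animal is not stated, so p-values cover the spread among these arrays and nothing wider, and 3 arrays a group limit the precision.

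Chaperones hold unfolded proteins and help them to fold. Hsp70 proteins (the *Hspa* genes) bind and release their clients as they hydrolyse ATP. DnaJ proteins (Hsp40) bring clients and start the hydrolysis, and the BAG proteins and the Hsp110 protein *Hsph1* exchange the nucleotide. Hsp90 matures signalling proteins, small heat shock proteins (*Hspb*) keep unfolded proteins from clumping, and *Hspd1* with *Hspe1* form the folding chamber of mitochondria. Many of these genes are driven by heat shock factors when proteins unfold, and sensory neurons are known for abundant *Hspb1* and *Hspa8*. The values below are log2 intensities, so a difference of 1 is a doubling of signal. Probe sets bind with unequal strength, so levels are compared between arrays and not between genes.

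The arrays had medians between 6.33 and 6.36 and correlated at 0.996 to 0.998 within groups. Sensory neuron markers were high on all arrays, with a mean of 11 genes between 12.9 and 13.0. The signal of *Scn10a* was 2.98-fold lower in the Nav1.8 KO group and that of *Scn11a* 3.62-fold lower in the Nav1.9 KO group (adjusted p = 5.4e-05 and 7.13e-07, limma). The *Scn9a* probe set read 1.05-fold lower for Nav1.7 KO (adjusted p = 0.642) and does not check that label. *Xist*, the RNA of the inactive X chromosome, was high on all Nav1.7 littermate arrays, on 2 of 3 Nav1.7 KO arrays and on 2 of 3 Nav1.8 KO arrays, and low on the others. The Nav1.9 littermates stood apart in nerve injury genes: 14 of 17 were higher there than in the other littermates, and their mean was 9.08 to 9.90 in the Nav1.9 littermates against 8.27 to 8.84 in the other littermates. In Nav1.9 KO DRG, 10 of the 17 were lower than in these littermates. Of the markers of satellite glia, Schwann cells, fibroblasts, endothelial cells, macrophages, muscle and red blood cells, only *Fabp7* of satellite glia passed in a KO line (0.36 in Nav1.7 KO), and 0 of 12 immediate early genes did. The macrophage markers had a median log2 fold change of 0.372 in Nav1.7 KO DRG with 0 of 8 past the test. In whole DRG, fewer cells of a type and less RNA per cell cannot be told apart.

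Member probe sets ran from a mean of 3.69 (*Dnajb7*) to 14.23 (*Hspa8*), and 63 of 77 members lay above the 40th percentile of brightness over all genes. The 14 dimmer ones include *Dnajc5b*, *Hspb6*, *Hspa1l*, *Hspb9* and *Dnajb13*. Their background is unknown.

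Only 1 of the 77 members passed the test in any KO line. *Dnajc5b* encodes cysteine string protein beta, a DnaJ protein closely related to the synaptic vesicle chaperone *Dnajc5*. It read 6.31, 6.24 and 6.34 in the Nav1.7 littermates and 5.48, 5.36 and 5.37 in Nav1.7 KO DRG. The highest KO array was below the lowest littermate array, by far more than the range within either group. The group means were 6.29 ± 0.0508 and 5.40 ± 0.0652 (SD, n = 3 arrays), a 1.86-fold lower value (log2 fold change -0.89, 95% interval -1.06 to -0.73, adjusted p = 3.42e-06 over all genes from limma). Over all genes, 4.33% passed in this comparison, and 1 of 77 members is 1.3%. It has 1 probe set, at the 33.8th percentile of brightness. *Avil*, whose gene carries Cre in this line alone, was 1.56-fold lower in the same KO arrays (adjusted p = 8.03e-08), so loss of Nav1.7, Cre and lower *Avil* cannot be told apart here. The mean of the sensory neuron markers was 12.95 to 12.99 in the Nav1.7 littermates and 12.89 to 12.91 in Nav1.7 KO DRG, with 1 of 11 markers (*Pou4f1*) past the test, and 3 of 17 nerve injury genes were higher in KO. The part of either in the *Dnajc5b* value was not tested.

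In the Nav1.8 line, *Dnajc5b* read 6.19, 6.34 and 6.26 in littermates and 6.10, 6.17 and 6.00 in KO DRG (log2 fold change -0.17, adjusted p = 0.602). In the Nav1.9 line it read 6.51, 6.53 and 6.77 in littermates and 6.22, 6.17 and 6.42 in KO DRG (log2 fold change -0.33, adjusted p = 0.0739). The KO arrays of both lines were below their littermates without overlap, yet neither difference passed. The Nav1.9 KO arrays were at the level of the littermates of both other lines, and it was the Nav1.9 littermates that were high. Without Nav1.9 KO array 3 the difference in that line passed (-0.41, adjusted p = 0.0484). The effect in Nav1.7 KO differed from that in Nav1.8 KO by -0.72 on the log2 scale (95% interval -0.96 to -0.49, adjusted p = 0.00188) and from that in Nav1.9 KO by -0.56 (-0.79 to -0.33, adjusted p = 0.00926), in tests of the difference itself with limma.

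**Figure D1:**
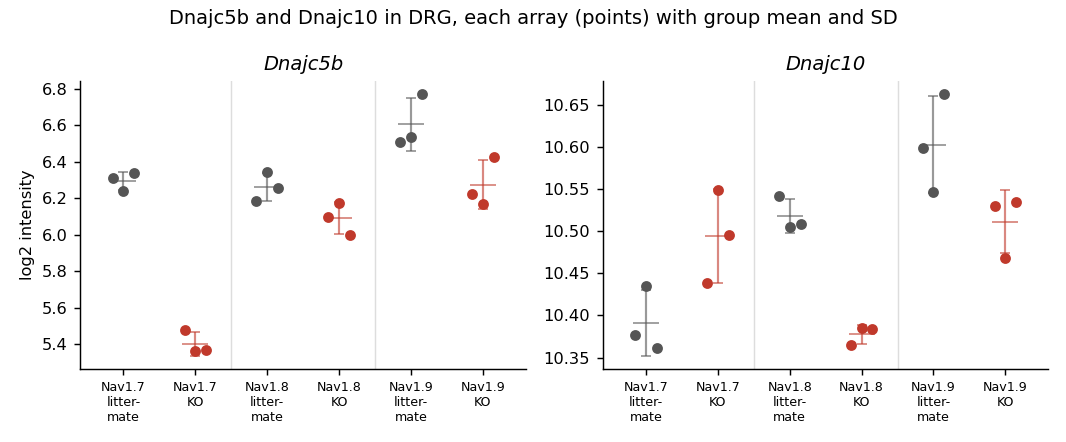
Log2 intensity of *Dnajc5b* (left) and *Dnajc10* (right) on each of 18 arrays (points, littermates grey and KO red), with the mean and SD of each group of 3. The vertical scales differ between panels. *Dnajc5b* was between 5.36 and 5.48 on the 3 Nav1.7 KO arrays and at least 6.00 on the other 15, while *Dnajc10* moved by less than 0.2 in each line.

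The relatives of *Dnajc5b* did not pass. *Dnajc5*, the cysteine string protein of synaptic vesicles, had a log2 fold change of -0.07 in Nav1.7 KO DRG (adjusted p = 0.423). *Dnajc5g* had one of 0.01 (adjusted p = 0.977) and was dim on all arrays.

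The other members lay close to 0 in all 3 lines. The median log2 fold change over the 77 members was 0.0168, -0.011 and -0.0311 for the Nav1.7, Nav1.8 and Nav1.9 lines in that order, beside 0.00815, -0.0142 and 0.00244 over all genes. The 95% interval of the fold change stayed within 1.5-fold for 75, 77 and 76 of 77 members. No member passed in Nav1.8 KO DRG, where 0.0165% of all genes did, and none in Nav1.9 KO DRG, where 0.473% did. At an unadjusted p under 0.05 in limma there were 8 members in Nav1.7 KO (10.4%, beside 16.3% of all genes), 3 in Nav1.8 KO (3.9%, beside 8.09%) and 15 in Nav1.9 KO (19.5%, beside 12.1%). KO and littermate arrays did not overlap for 18, 8 and 19 members (23.4%, 10.4% and 24.7%), beside 20.4%, 13.8% and 18% of all genes. In Nav1.9 KO DRG, 14 of those 19 were below the littermates (18.2% of members, beside 9.29% of all genes), and the comparison runs against the littermates that stood apart.

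**Figure D2:**
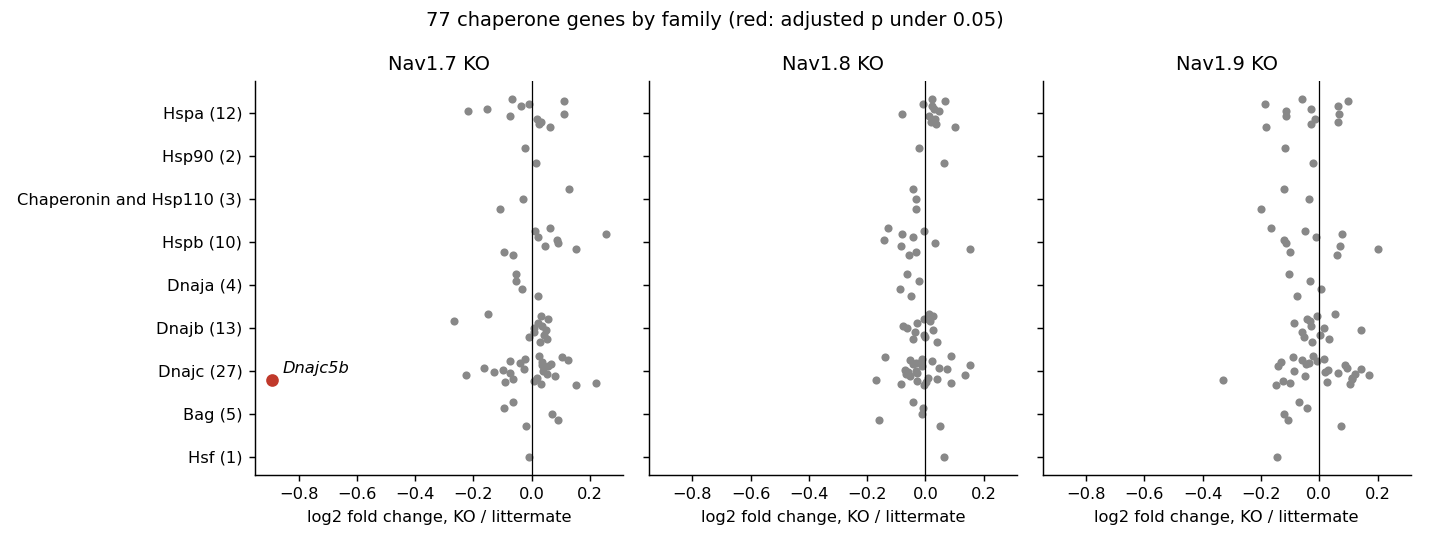
Log2 fold change, KO over littermates, of the 77 members by family (number of members in brackets) in the 3 lines, each point 1 gene. Red marks an adjusted p under 0.05. *Dnajc5b* at -0.89 in Nav1.7 KO is the only red point, and in all 3 panels the rest lies between -0.33 and 0.26.

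Among Hsp70 genes, the largest difference toward lower values in Nav1.7 KO DRG was that of *Hspa1b*, one of a pair of strongly heat-inducible Hsp70 genes with *Hspa1a*. It read 10.71, 10.94 and 11.45 in littermates and 10.74, 10.51 and 11.19 in KO DRG. The groups overlapped, and the log2 fold change of -0.22 had a 95% interval from -0.73 to 0.30 (adjusted p = 0.728). The constitutive Hsp70 *Hspa8*, which also strips clathrin from vesicles, read 14.24, 14.23 and 14.17 in Nav1.7 littermates and 14.25, 14.14 and 14.32 in KO DRG. *Hspa5*, the Hsp70 of the endoplasmic reticulum (ER), read 11.93, 12.02 and 12.02 in littermates and 11.96, 12.05 and 12.05 in Nav1.7 KO DRG. Neither gene separated the groups.

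*Hspa13*, an Hsp70-like protein of microsomes, had one of the 3 most negative log2 fold changes of any member in Nav1.9 KO DRG. It read 10.19, 10.14 and 10.16 in littermates and 10.04, 10.0004 and 9.90 in KO DRG, without overlap (log2 fold change -0.19, adjusted p = 0.127). Its level in Nav1.9 KO DRG lay near that of the Nav1.8 line, which read 9.88 to 9.96 over both genotypes.

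The 13 measured genes of a heat shock response list were *Hspa1a*, *Hspa1b*, *Hspa8*, *Hsp90aa1*, *Hsph1*, *Hspb1*, *Hspb8*, *Dnaja1*, *Dnajb1*, *Hspd1*, *Hspe1*, *Bag3* and *Hsf2*. The list is not purely heat-inducible, since it holds the constitutive *Hspa8*, and *Hsf2* is its only heat shock factor measured here. Its genes had medians of -0.0226, -0.0213 and -0.114 for the KO effects of the Nav1.7, Nav1.8 and Nav1.9 lines. None of them passed in any line. In Nav1.9 KO DRG, 11 of 13 had a negative log2 fold change (48.8% of all genes), 4 were at an unadjusted p under 0.05 (12.1% of all genes), and 6 were below the littermates on all arrays (9.29% of all genes). *Hsph1* read 12.25, 12.25 and 12.40 in Nav1.9 littermates and 12.17, 12.02 and 12.11 in KO DRG (log2 fold change -0.20, adjusted p = 0.335). *Hsp90aa1*, the inducible cytosolic Hsp90, read 13.67, 13.70 and 13.66 against 13.52, 13.57 and 13.59 (log2 fold change -0.12, adjusted p = 0.184). Its second probe set, of nearly the same brightness, gave 0.06 in the same comparison, and 3 of its 5 probe sets were negative. *Hspb1*, which protects axons and is mutated in inherited neuropathy, read 13.52, 13.43 and 13.51 against 13.41, 13.25 and 13.29 (log2 fold change -0.17, adjusted p = 0.404). At these probe sets all 3 genes were lower on every KO array, by amounts that did not pass over all genes.

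In the Nav1.9 littermates, 11 of the 13 had a positive difference from the other littermates (45.5% of all genes), with a median of 0.0724. Since these littermates serve in both comparisons, the values stand side by side and are no second piece of evidence. For *Hsph1* the littermates of the Nav1.8 line read 12.21, 12.20 and 12.41, close to the Nav1.9 littermates, while the Nav1.7 littermates read 11.88, 11.98 and 12.17.

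Among the members, spread within groups was widest for *Hspa1b* and *Hspa1a*. *Hspa1b* had a pooled within-group SD of 0.334, which is at the 99th percentile of all genes, and ranged from 10.51 on Nav1.7 KO array 2 to 11.86 on Nav1.8 KO array 1. *Hspa1a* had an SD of 0.275 and ranged from 8.52 to 9.51. *Dnajb1*, the main DnaJ partner of inducible Hsp70, had an SD of 0.177 and ranged from 10.67 to 11.24. These genes were high on the same arrays: in 6 of 6 groups the array highest in *Hspa1b* was also the highest in *Hspa1a*, and in 5 of 6 groups it was the highest in *Dnajb1*. Over all genes, 0.357% shared the highest array in all groups and 3.72% in 5 or more, and of the 76 other members 2 (*Hspa1a* and *Hspe1*) and 6 did. *Hspa1a* and *Hspa1b* are near-identical in sequence and their probe sets may read both, so their shared order is uncertain as evidence of 2 genes. The 3 probe sets of *Hspa1b* had log2 fold changes between -0.22 and -0.10 in Nav1.7 KO DRG and none passed.

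**Figure D3:**
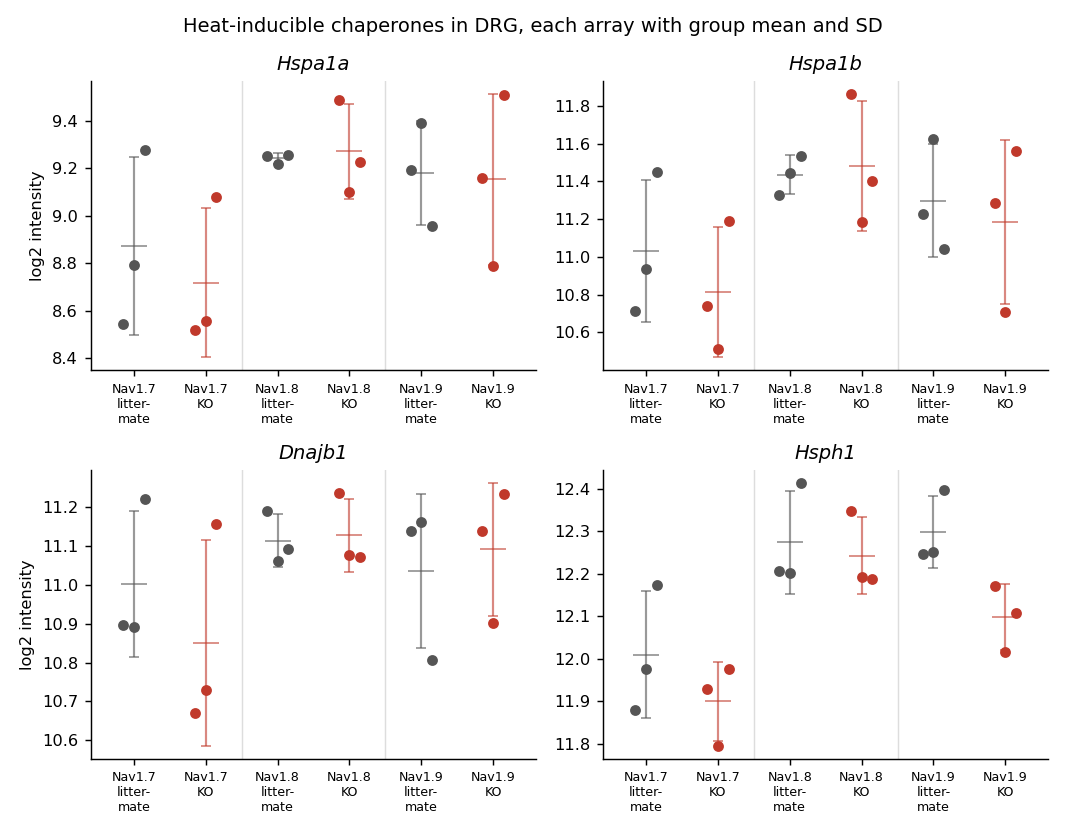
Log2 intensity of *Hspa1a*, *Hspa1b*, *Dnajb1* and *Hsph1* on each array (points in the order of replicates 1 to 3, littermates grey and KO red), with group mean and SD of 3. Scales differ between panels. The spread inside a group of *Hspa1a* and *Hspa1b*, up to 0.855 between arrays, is wider than any difference between a KO group and its littermates.

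Promoter sequence was read for every member with a window. RefSeq windows of 300 bases (GRCm38.p6, 250 before and 50 after a start site) were at hand for 63 of 77 members. For motifs, shares of all genes are over the 27025 RefSeq genes with a window, and not over the 18193 genes of the arrays. The heat shock factor site is built of GAA and TTC units spaced by 2 bases. The pair GAANNTTC stood on either strand in windows of 15 members (23.8%) and of 9.04% of all genes, and the pair TTCNNGAA in 6 members (9.52%) and 9.6% of all genes. Runs of 3 units, which contain both kinds of pair, stood in *Dnajb6*, *Hspd1*, *Hspe1* and *Hsph1* (6.35% of members, 0.662% of all genes). The stretches below show every pair in capitals, 5′ to 3′ along each gene, with 20 bases on both sides. *Hspb1* has 2 pairs, and *Hspd1* has a run of 4 units. The stretches other than that of *Dnajb6* were chosen because *Hspa1b* and *Hspa1a* varied most, *Hspb1* was named above, and *Hspd1* and *Dnajc10* are called in comparisons that follow. *Dnajb6* holds a run of 3 units and had the smallest within-group SD of any member (0.0189).
Hspa1b: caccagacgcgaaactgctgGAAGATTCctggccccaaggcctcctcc
Hspb1: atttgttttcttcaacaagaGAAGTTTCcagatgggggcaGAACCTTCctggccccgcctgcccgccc
Dnajb6: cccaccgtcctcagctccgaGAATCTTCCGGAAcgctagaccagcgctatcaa
Hspd1: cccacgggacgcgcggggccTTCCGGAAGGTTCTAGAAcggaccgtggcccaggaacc
Dnajc10: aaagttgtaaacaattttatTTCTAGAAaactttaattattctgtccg

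The *Hspa1b* stretch is chr17:34959315-34959362 on the minus strand. The window of *Hspa1a* holds the same 48 bases at chr17:34972233-34972280, also on the minus strand, and in both the pair begins 104 bases before the start. The *Hspb1* stretch is chr5:135887782-135887849 (plus strand, its first pair 117 bases before the start), and the *Dnajb6* stretch is chr5:29735832-29735884 (plus strand, 46 bases before the nearer of its start sites). The *Hspd1* stretch is chr1:55088039-55088096 on the minus strand. *Hspd1* and *Hspe1* are transcribed away from each other, and the same bases lie in the window of *Hspe1* on the plus strand, so the 2 genes share 1 run of units. The *Dnajc10* stretch is chr2:80315264-80315311 (plus strand, 182 bases before the start). A match is a description of letters and was not tested for binding.

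The 17 members with either pair had median log2 fold changes of 0.0209, -0.0319 and -0.0917 over the lines in the same order, and the 46 members with a window and no pair had 0.0133, -0.000214 and -0.0216. No member of either set passed in a KO line. *Dnajc5b*, the only member that did, had no window and is in neither set. The median within-group SD was 0.083 with a pair and 0.0744 without. *Dnajb1* held neither pair in this window and varied between arrays all the same.

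Among the ER chaperones, *Hspa5*, *Hsp90b1* (the Hsp90 of the ER) and *Dnajc3* (an ER DnaJ protein that restrains the kinase PERK) were the 3 members whose windows held the ER stress response element, a CCAAT box set 9 bases from CCACG. It stood in 4.76% of members with a window and 0.137% of the 27025 RefSeq genes with one. The elements are printed in capitals because all 3 genes are targets of the unfolded protein response.
Hspa5: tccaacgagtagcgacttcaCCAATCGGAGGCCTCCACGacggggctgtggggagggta
Hsp90b1: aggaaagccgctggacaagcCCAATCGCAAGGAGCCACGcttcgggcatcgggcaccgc
Dnajc3: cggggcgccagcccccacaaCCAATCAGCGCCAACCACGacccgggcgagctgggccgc

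These lie at chr2:34772005-34772063 (plus strand), chr10:86705618-86705676 (minus strand) and chr14:118937807-118937865 (plus strand). *Hsp90b1* holds another element nearer the start. Their log2 fold changes were between -0.23 and 0.03 in Nav1.7 KO, 0.02 and 0.13 in Nav1.8 KO and -0.02 and 0.17 in Nav1.9 KO DRG, and none passed.

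*Dnajc3* gave the outer values of these ranges. It read 10.50, 10.43 and 10.52 in Nav1.7 littermates and 10.18, 10.22 and 10.36 in KO DRG, without overlap (log2 fold change -0.23, adjusted p = 0.139). In the Nav1.8 line its log2 fold change was 0.13 (adjusted p = 0.691) and in the Nav1.9 line 0.17 (adjusted p = 0.403). Its 5 probe sets disagreed: the brightest alone had a log2 fold change of -0.23 in Nav1.7 KO DRG, and the other 4 had values of at most 0.04 in size.

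*Dnajc10*, an ER DnaJ protein that reduces disulfide bonds, read 10.38, 10.43 and 10.36 in Nav1.7 littermates and 10.44, 10.55 and 10.50 in KO DRG. In the Nav1.8 line it read 10.54, 10.50 and 10.51 in littermates and 10.36, 10.38 and 10.38 in KO DRG. The KO arrays were higher in one line and lower in the other without overlap, and neither difference passed (adjusted p = 0.215 and 0.491). The difference between the effects was 0.24 on the log2 scale (95% interval 0.12 to 0.37, adjusted p = 0.0421, limma). It rests on the brightest of 3 probe sets: the mean of all of them gave 0.14 (adjusted p = 0.28). *Dnajc10* and *Dnajc5b* were the 2 members (2.6%) past the test of Nav1.7 against Nav1.8 effects, beside 2.15% of all genes, *Dnajc5b* was the 1 member (1.3%) for Nav1.7 against Nav1.9, beside 2.82%, and no member passed for Nav1.8 against Nav1.9, beside 0.0385%. In the last of these, limma gave 5 members at an unadjusted p under 0.05, beside 9.04% of all genes. The *Dnajc10* call was lost on leaving out any of 13 of the 18 arrays in turn, and with the *Xist* class in the model (0.21, adjusted p = 0.306). Over all 18 fits that left out 1 array, kept calls included, the value ran from 0.22 to 0.27.

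The small heat shock proteins had no called member. *Hspb2* and *Hspb6* are best known from muscle. *Hspb2* read 7.12, 6.73 and 7.01 in Nav1.7 littermates and 7.41, 6.93 and 7.29 in KO DRG (log2 fold change 0.26, the largest of any member there, adjusted p = 0.316). *Hspb6* had an SD within groups of 0.229 and ranged from 6.36 on Nav1.8 KO array 3 to 7.12 on Nav1.7 KO array 1. Muscle marker genes varied with it: the mean of 10 such genes ran from 6.65 to 8.95 over the arrays, and in 6 of 6 groups its highest array was also the highest in *Hspb6*. This held for no other member and for 0.253% of all genes. The range of that mean was 6.77 to 7.99 in Nav1.7 littermates and 6.83 to 8.95 in Nav1.7 KO DRG, and none of the 10 markers passed in a KO line. The part of muscle in the *Hspb2* and *Hspb6* values was not tested.

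**Figure D4:**
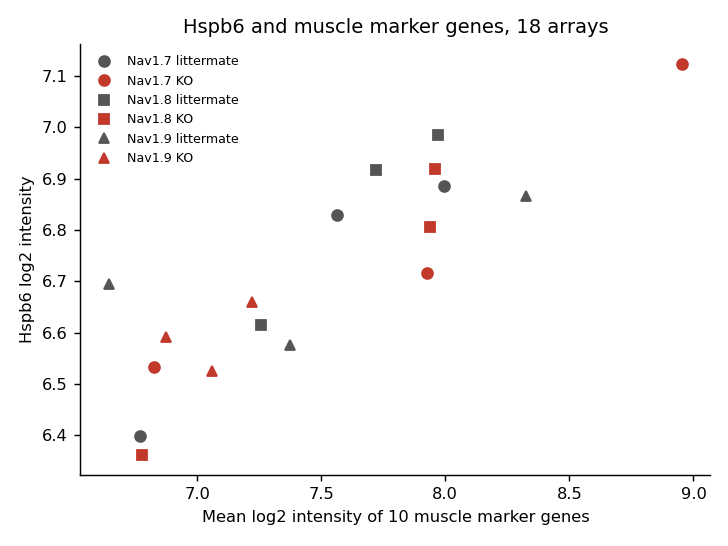
*Hspb6* log2 intensity against the mean log2 intensity of 10 muscle marker genes on the 18 arrays (circles Nav1.7, squares Nav1.8, triangles Nav1.9, littermates grey and KO red). Nav1.7 KO array 1 is highest on both axes, at 8.95 and 7.12.

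None of the remaining DnaJ genes passed in a KO line. *Dnajb13*, a DnaJ protein of cilia and sperm tails, had a log2 fold change of -0.27 in Nav1.7 KO DRG (adjusted p = 0.17) at a dim probe set, with a first littermate array at 5.16 and all others between 4.62 and 5.03. *Dnajc17* had one of 0.15 in Nav1.8 KO DRG and *Dnajc21*, a DnaJ protein of ribosome assembly, one of 0.14 in Nav1.9 KO DRG. The dim *Hspb9* had 0.15 in the Nav1.8 and 0.20 in the Nav1.9 line. Among BAG genes, *Bag4* read 8.98, 8.998 and 8.97 in Nav1.8 littermates and 8.85, 8.91 and 8.71 in KO DRG (log2 fold change -0.16, adjusted p = 0.538). *Dnajc7* and *Dnajc9* had 0.22 and 0.15 in Nav1.7 KO DRG, where KO array 3 was the lowest of its group for both genes (8.62 and 6.96). Over the fits that left out 1 array, *Dnajc7* ranged from 0.08 (without KO array 2) to 0.40 (without KO array 3) and *Dnajc9* from 0.08 (without KO array 1) to 0.30 (without KO array 3). Both passed without KO array 3 and in no other of these fits, and the count of called members was then 3.

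More members were called between the Nav1.9 littermates and the other littermates than in any KO line. These counts are at unlike precision. The littermate comparison set 3 arrays against 6, with a median standard error of 0.0535 over members, beside 0.0618 in each KO line. In the Nav1.9 littermates, 11 of 77 members (14.3%) differed from the mean of the Nav1.7 and Nav1.8 littermates, beside 9.03% of all genes: 9 were higher (11.7%, beside 4.62%) and 2 lower (2.6%, beside 4.41%). The Nav1.9 littermate arrays did not overlap the other 6 for 11 of the 77 members (14.3%), beside 9.67% of all genes. The number of called members was 6 without Nav1.9 littermate array 3. Line, batch and the nerve injury genes given above cannot be told apart in this comparison. *Xist* class is mixed in as well, since *Xist* was high in the Nav1.7 littermates and low in the Nav1.8 and Nav1.9 littermates. With the *Xist* class in the model 8 members were called, of which 7 were among the 11. *Bag3*, *Dnajc10*, *Dnajc3* and *Hspa9* then lost the call.

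*Dnajc18*, a DnaJ protein of the ER membrane, had the largest difference. It read 8.9998, 8.97 and 9.10 in Nav1.9 littermates, 8.57, 8.55 and 8.47 in Nav1.8 littermates and 7.67, 7.80 and 7.60 in Nav1.7 littermates (1.88-fold higher in Nav1.9 littermates, adjusted p = 1.53e-06). The KO arrays kept the order of the lines, with 8.91, 8.86 and 8.88 in Nav1.9, 8.58, 8.58 and 8.40 in Nav1.8 and 7.85, 7.86 and 7.54 in Nav1.7 KO DRG. The other 2 probe sets of the gene gave differences of 0.20 (adjusted p over all probe sets = 0.016) and 0.03 (adjusted p = 0.767), so its size rests on 1 probe set.

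*Dnajc7*, a cochaperone that binds both Hsp70 and Hsp90, read 9.74, 9.55 and 9.77 in Nav1.9 littermates, 9.23, 9.16 and 9.17 in Nav1.8 littermates and 8.73, 8.89 and 8.68 in Nav1.7 littermates (1.63-fold higher, adjusted p = 0.0012). *Dnajb2*, a neuronal DnaJ protein that hands clients to the proteasome, read 10.07, 10.04 and 9.95, then 9.92, 9.84 and 9.91, then 9.51, 9.58 and 9.58 (1.23-fold higher, adjusted p = 0.00229). For both genes the Nav1.7 littermates were lowest and the Nav1.9 littermates highest, with no overlap between neighbours. *Dnajc18* and *Dnajb2* were the members for which the 6 arrays of each line, KO and littermate together, did not overlap those of any other line (2.6%, beside 0.55% of all genes).

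Of the mitochondrial chaperones, *Hspd1* and *Hspa9* were called. *Hspd1* read 12.06, 12.02 and 12.18 there, 11.87, 11.84 and 11.91 in Nav1.8 littermates and 11.54, 11.73 and 11.61 in Nav1.7 littermates (1.26-fold higher, adjusted p = 0.00237). *Hspa9* (mortalin) read 10.74, 10.56 and 10.83, then 10.18, 10.17 and 10.37, then 10.50, 10.68 and 10.56 (1.23-fold higher, adjusted p = 0.0314), and overlapped the Nav1.7 littermates. A probe set of *Hspa9* of nearly the same brightness gave a difference of 0.07 (adjusted p over all probe sets = 0.305), the mean of all its probe sets gave 0.07 (adjusted p = 0.28), and the call was lost on leaving out any of 6 of the 18 arrays. *Hspe1*, the partner of *Hspd1* that shares its promoter, had a difference of -0.02 and *Dnaja3*, a DnaJ protein of mitochondria, one of -0.04 (adjusted p = 0.858 and 0.595).

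**Figure D5:**
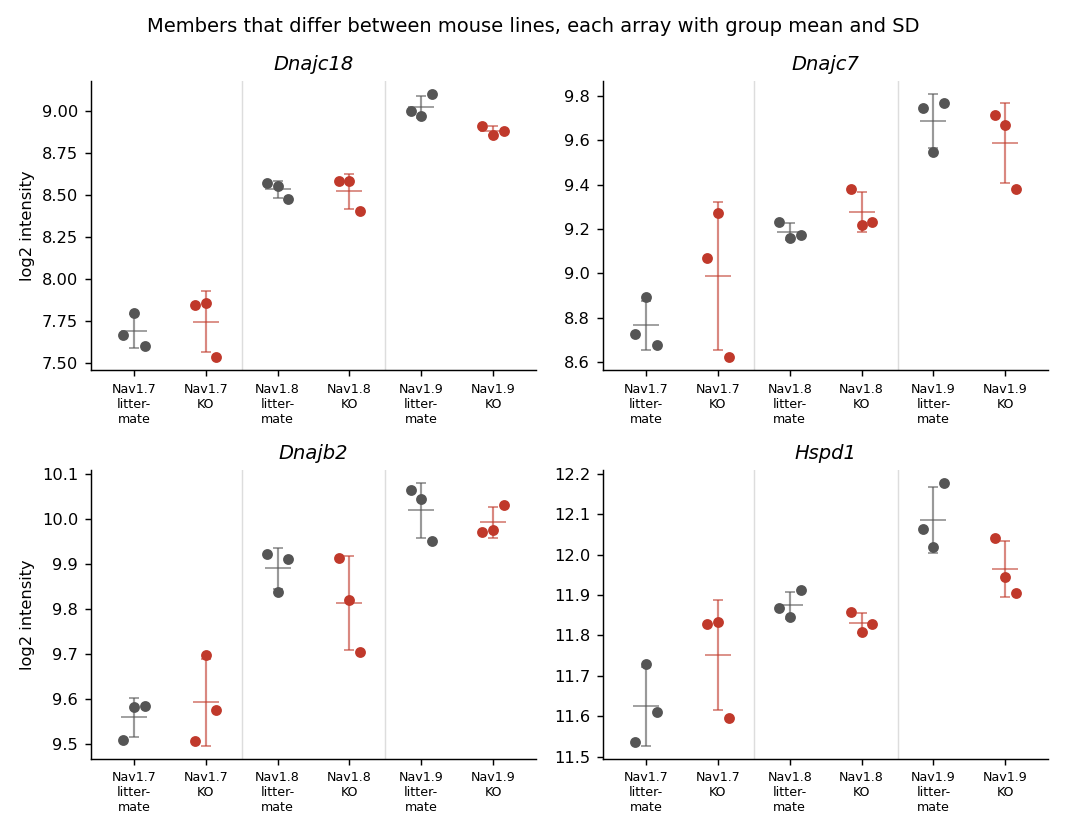
Log2 intensity of *Dnajc18*, *Dnajc7*, *Dnajb2* and *Hspd1* on each array (points, littermates grey and KO red), with group mean and SD of 3. Scales differ between panels. For all 4 genes the group means go up from the Nav1.7 to the Nav1.8 to the Nav1.9 line in both genotypes.

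The other called members had differences of 1.25-fold or less. *Bag3*, which routes Hsp70 clients to autophagy, was 1.14-fold higher (adjusted p = 0.0261). It read 11.80 to 11.88 in Nav1.9, 11.73 to 11.78 in Nav1.8 and 11.47 to 11.55 in Nav1.7 littermates. *Dnajc10* was 1.11-fold higher (adjusted p = 0.0187), at 10.55 to 10.66, then 10.50 to 10.54, then 10.36 to 10.43. For both genes the Nav1.7 littermates were thus farthest off. The *Bag3* call was lost on leaving out any of 5 of the 18 arrays, and the *Dnajc10* call any of 2. With the *Xist* class in the model neither passed (adjusted p = 0.135 and 0.0746, limma). *Dnajc5b* was at 6.51 to 6.77 against at most 6.34 (1.25-fold higher, adjusted p = 0.00782). *Hspa4*, an Hsp110-type exchange factor, was 1.12-fold higher (adjusted p = 0.00687; its 3 other probe sets gave 0.02, 1.05 and 0.04), but its Nav1.8 littermates read 11.30 to 11.33, next to 11.33 to 11.37 in the Nav1.9 littermates, and it was the Nav1.7 line that was low, at 11.02 to 11.11 over both genotypes. The lower members were *Dnajc3* (1.18-fold, adjusted p = 0.0366) and *Dnajc5* (1.10-fold, adjusted p = 0.0136). For these 2 genes other probe sets gave the opposite sign, and for *Dnajc3* one of them passed as higher (0.33, adjusted p over all probe sets = 0.0293).

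The Nav1.7 line stood apart from both other lines in 7 members (9.09%, beside 4.03% of all genes) over all its 6 arrays: *Dnaja2*, *Dnaja3*, *Dnajb2*, *Dnajc18*, *Hspa4*, *Hspa14* and *Hspb8*. All 7 were lower there, each at its brightest probe set. Their other probe sets, where a gene had any, were not examined in this way. *Dnaja3* was at 9.58 to 9.64 against at least 9.66 in the other lines, and *Hspb8*, the partner of *Bag3*, at 12.04 to 12.13 against at least 12.17. Most Nav1.7 arrays were also high in *Xist* and the Nav1.9 arrays were all low, so line and *Xist* class are mixed in these values.

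Folding genes outside the members gave no called gene in any KO line. This held for 13 genes of the CCT chaperonin and prefoldin, 16 measured Hsp90 and Hsp70 cochaperones, 20 genes of ER folding and the unfolded protein response and 7 measured stress folding genes. The nearest in Nav1.7 KO DRG was *Cdc37*, the cochaperone that brings kinases to Hsp90 (log2 fold change 0.16, adjusted p = 0.0684), followed by *Edem1*, which sends misfolded glycoproteins to degradation (-0.21, adjusted p = 0.104). In Nav1.9 KO DRG it was *Trib3*, a target of the unfolded protein response (log2 fold change -0.24, adjusted p = 0.0736), and in Nav1.8 KO DRG the chaperonin subunit *Cct8* (0.17, adjusted p = 0.491). In the Nav1.9 littermates 1 of 13, 2 of 16 and 5 of 20 of these genes were higher and 0, 0 and 1 lower, and 1 of 7 stress folding genes was lower. Over all genes, 4.62% were higher and 4.41% lower in this comparison. The highest differences in the first 3 lists were those of *Pfdn2* (0.57), the Hsp90 cochaperone *Fkbp4* (0.50, adjusted p = 1.51e-05) and the disulfide isomerase *Pdia3* (0.77, adjusted p = 0.000133).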

How the data were processed

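RNA of whole DRG was hybridised to Affymetrix Mouse Genome arrays, 18 in all. The authors deposited a log2 intensity for each probe set on each array, made with Affymetrix Expression Console. The summary method, background correction and version are not given in the sources used here, and the base of the logarithm rests on how far the values reach. There are no detection calls, so signal over background is unknown. Groups came from the titles and genotypes given per the labels. A source field that calls every sample a littermate control was not used.

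Control probe sets (64) were dropped, and 34945 named for 1 gene were kept (932 carried several symbols and 9160 were not listed in the annotation). The brightest per gene gave 18193 genes. Group means over all arrays were fitted with limma 3.58.1 in R 4.3.3 (two-sided test, Benjamini-Hochberg adjustment over all genes, threshold 0.05), with 12 residual and 3.44 prior degrees of freedom. The fit was tested on simulated data. Differences between KO effects, and the Nav1.9 littermates against the mean of the others, were contrasts of the same model.

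The members and the lists were chosen with earlier results of these data known. Named members were those past the threshold in any contrast, those at an unadjusted p under 0.01 and a fold over 1.5 in a KO line, the 3 largest differences each way per KO line, the heat shock response list and the brightest and dimmest of each family. Other genes, among them *Hspa5*, *Hspa14*, *Dnaja2*, *Dnajb4*, *Hspb11* and those with printed promoter matches, were named after their values were seen. Of each list outside the members, the genes with the smallest p were named. Promoters came from RefSeq on GRCm38.p6. Alternatives were other normalizations, filters, probe set rules, priors, array weights, the replicate number as a block, the *Xist* class, each line alone and leaving out each array.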

Additional observations from a re-analysis of the deposited data

Results flagged for a closer look

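For 2 members the effects in 2 KO lines differed by a test of the difference itself. The effect on *Dnajc5b* in Nav1.7 KO DRG differed by -0.72 from that in Nav1.8 KO DRG and by -0.56 from that in Nav1.9 KO DRG on the log2 scale (adjusted p = 0.00188 and 0.00926, limma). All 3 Nav1.7 KO arrays of *Dnajc5b* lay below the other 15 arrays. The effect on *Dnajc10* exceeded that of the Nav1.8 line by 0.24 in the Nav1.7 line (adjusted p = 0.0421, but 0.14 and adjusted p = 0.28 with the mean of its 3 probe sets), with the KO arrays above the littermates in the first line and below them in the second.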

How the results depend on the processing

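*Dnajc5b* was called in Nav1.7 KO DRG in every fit that held it, with values from -0.93 to -0.87 on leaving out each array, but it lies below the filter on dim genes, so the count of called members there was 0 without dim genes. Over 1012 other fits of 35 results on named members, 954 kept their direction and side of the threshold, 47 lost the call, 6 gained it and 5 reversed. Many of the 35 results were not called to begin with, so staying uncalled counted as kept. Leaving out an array of an uninvolved line also left the estimate as it was. The total is therefore no measure of how firm the calls are. With the replicate number as a block, the count was 2 in Nav1.7 KO (*Dnajc3* added, adjusted p = 0.0464), 1 in Nav1.9 KO (*Dnajc5b*, adjusted p = 0.0332) and 2 for Nav1.7 against Nav1.9 effects, and the *Dnajc10* difference was lost (adjusted p = 0.0783). The block moved no other count of calls by a ratio over 1.5. For Nav1.7 against Nav1.8 effects this held although *Dnajc10* was lost, so another member, not named here, was called under the block. The block could not be fitted for the Nav1.9 littermates, which lie between blocks. Same-numbered arrays of a line correlated at -0.194 to 0.266 in their deviations. Arrays of unlike number were not set beside them, so these values cannot decide whether the numbers pair the samples. With a trend and robust prior the count was 1 in Nav1.9 KO (*Hsp90aa1*, adjusted p = 0.0353, at a probe set that its second one opposes in sign) and 3 for Nav1.7 against Nav1.9 effects. For that comparison it was 3 without dim genes, 2 with the mean of all probe sets and 0 at an unadjusted p under 0.01 with a fold over 1.5. For Nav1.7 against Nav1.8 effects it was 1 with dim genes left out, 1 with a term for *Xist* class, 1 at that p and fold, and 0 without the KO arrays of another *Xist* class than their littermates (*Dnajc5b* -0.71, adjusted p = 0.0657). That last fit left Nav1.8 KO with 1 array, assumed to vary like the other groups. In the Nav1.9 littermates 2 members were called at that p and fold, and with the *Xist* class in the model 8 were, of which 7 were among the 11. The median in Nav1.7 KO was -0.00812 with the mean of all probe sets and 0.00351 with the *Xist* class. Leaving out each array gave counts of 1 to 3 in Nav1.7 KO, 0 in all fits in Nav1.8 KO, 0 to 1 in Nav1.9 KO, 1 to 4 for Nav1.7 against Nav1.9 effects (4 without Nav1.7 KO array 3, 2 without Nav1.9 littermate array 1 or Nav1.9 KO array 3), 1 to 2 for Nav1.7 against Nav1.8 effects and 6 to 13 in the Nav1.9 littermates. It gave medians of 0.000349 to 0.0288 in Nav1.7 KO, -0.027 to -0.00851 in Nav1.8 KO and -0.048 to -0.0136 in Nav1.9 KO. Reversed values were those of *Dnajc3* in Nav1.9 KO (-0.02016) and in the Nav1.9 littermates (0.0692) and of *Dnajc5* in these littermates (0.01542), all with the mean of all probe sets, and of *Hspb6* in Nav1.8 KO (0.08019 without the KO arrays of another *Xist* class, and -0.256 to 0.02331 on leaving out each array, the last without Nav1.8 KO array 3). The causes were not tested. Each line fitted alone gives no value between lines.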
